A study of Mus musculus with 14 samples.

Results

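The regions described here were the promoter peaks of a ChIP-seq library made from mesoderm with an antibody to the ETS factor ELK4, and an ELK4 peak below means a call in that library. A peak of the ELK4 list was included where the start of transcription (TSS) of a RefSeq protein-coding gene on mm10 lay at most 2 kb from the peak centre, which held for 340 of the 524 ELK4 peaks (64.9%, exact 95% interval 60.6 to 69.0%). The other 184 peaks are called distal. A response element of p53 was held by 94 of the 184 distal peaks (51.1%), in 90 of them within 50 bp of the peak centre, and by 16 of the 340 promoter peaks (4.71%). What this means for the identity of the bound factor was not tested, and comparisons of promoter with distal peaks are given below also without these peaks where a call changed, an alternative chosen after the data were seen. The 340 promoters had 337 different nearest genes, and 403 of the 21000 coding genes (1.92%) had a TSS within 2 kb of an ELK4 peak centre, because 66 peaks lay near more than 1 gene. The last peaks inside the limit lay 1997 bp from the TSS of Lin28a, 1932 bp from Tppp3 and 1759 bp from Aebp2, and the first outside it lay 2128 bp from Junb, 2182 bp from Ier2 and 2364 bp from Egr3.

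The study followed cells of 1 mouse embryonic stem (ES) cell line of strain 129, which carries a GFP reporter at Brachyury, as they formed blood in culture. ELK4 was immunoprecipitated from mesoderm (MES) sorted as Bry.GFP+ and FLK1-. The lists set beside it came from MES, from hemangioblast (HB, Bry.GFP+ and FLK1+) and hemogenic endothelium (HE, Tie2+, cKit+ and CD41-), from hematopoietic progenitors (HP, CD41+) and from macrophages (MAC, CD11b+), and covered C/EBPb, GATA1, GATA2, GFI1B, RUNX1 and PU.1, the product of Spi1. Each of the 14 lists was 1 library, so that no difference between stages could be set against replicates, and the tests below compare peaks of the ELK4 library with each other. Peak positions hold no RNA levels, so the sorted populations were not checked against marker genes.

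ELK4, also called SAP1, is a ternary complex factor: its ETS domain recognises a GGAA core, and together with serum response factor (SRF), which binds the CArG box, it occupies the serum response elements of immediate early genes. These genes are switched on within minutes when growth factors activate the MAP kinase pathway, which phosphorylates ternary complex factors. ETS sites are also a common element of the CpG-rich promoters of housekeeping genes, where many ETS family members can bind without SRF.

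The sequences below each show 1 element of an ELK4 promoter in capitals. They are from the RefSeq GRCm38.p6 assembly (mm10) and are written 5′ to 3′ on the strand of the gene. An element in capitals does not exclude others, and Ier2 also holds a CArG box with 1 mismatch in lower case. For immediate early genes the first found was taken, in the order CArG box, ELK4 consensus, ETS core and CArG box with 1 mismatch. The first set is from promoters of immediate early genes, with the CArG box in capitals for Egr2 (chr10:67537444-67537553, plus strand), Fos (chr12:85473531-85473640, plus strand) and Junb (chr8:84980109-84980218, minus strand), a CArG box with 1 mismatch for Btg2 (chr1:134079269-134079378, minus strand), the ELK4 consensus CCGGAAGT for Ier2 (chr8:84664030-84664137, minus strand) and the ETS core CCGGAA for Nr4a1 (chr15:101266671-101266776, plus strand) and Mcl1 (chr3:95658679-95658708, plus strand, 30 bases because the site lies in an annotated exon).
Egr2: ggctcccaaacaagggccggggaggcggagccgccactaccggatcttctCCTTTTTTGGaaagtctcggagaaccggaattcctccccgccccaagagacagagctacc
Fos: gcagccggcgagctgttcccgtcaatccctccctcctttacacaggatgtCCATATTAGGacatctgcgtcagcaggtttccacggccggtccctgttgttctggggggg
Junb: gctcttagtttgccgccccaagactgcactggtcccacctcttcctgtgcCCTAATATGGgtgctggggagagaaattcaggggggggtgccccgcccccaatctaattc
Btg2: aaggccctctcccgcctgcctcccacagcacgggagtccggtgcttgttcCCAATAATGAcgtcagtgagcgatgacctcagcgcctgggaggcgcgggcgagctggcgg
Ier2: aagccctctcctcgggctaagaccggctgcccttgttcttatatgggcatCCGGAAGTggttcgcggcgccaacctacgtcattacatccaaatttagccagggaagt
Nr4a1: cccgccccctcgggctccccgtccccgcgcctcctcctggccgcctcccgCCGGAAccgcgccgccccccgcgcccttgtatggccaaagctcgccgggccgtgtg
Mcl1: cgggccagccctCCGGAAacgcccgcccct

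The second set shows CArG boxes close to a TSS outside the immediate early genes, each in an exon and so cut to 30 bases, at Irf3 (chr7:44997648-44997677, plus strand) and Clhc1 (chr11:29548097-29548126, plus strand), and the ETS core of Zfp740 (chr15:102203226-102203255, plus strand), the only promoter that also appeared in the MAC RUNX1 list.
Irf3: aggcggaaggCCAAAAAAGGgcatttgagg
Clhc1: gagaggctttCCTTTAAAGGgggcttgtga
Zfp740: cagcagcaggcaCCGGAAaaacagacctca

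The third set was chosen after the values had been seen. It shows the YY1 motif AAGATGGCG, on either strand, at the promoters of Osbpl11 (chr16:33184952-33185060, plus strand), Plod3 (chr5:136986954-136987018, plus strand), Zfp563 (chr17:33089493-33089601, plus strand, intronic) and Nfe2l1 (chr11:96830392-96830500, minus strand), and the p53 response element at Cdkn1a (chr17:29090888-29090978, plus strand), Ccng1 (chr11:40755422-40755521, minus strand), Zmat3 (chr3:32364291-32364390, minus strand, intronic) and Bax (chr7:45466534-45466633, minus strand, intronic).
Osbpl11: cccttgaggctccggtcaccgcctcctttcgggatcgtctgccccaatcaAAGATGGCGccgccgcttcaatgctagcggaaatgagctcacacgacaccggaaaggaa
Plod3: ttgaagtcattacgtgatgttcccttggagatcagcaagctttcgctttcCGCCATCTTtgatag
Zfp563: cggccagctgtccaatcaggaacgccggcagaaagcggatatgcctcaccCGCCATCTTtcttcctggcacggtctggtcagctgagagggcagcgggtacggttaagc
Nfe2l1: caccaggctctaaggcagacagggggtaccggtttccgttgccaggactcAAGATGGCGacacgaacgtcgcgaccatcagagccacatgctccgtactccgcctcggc
Cdkn1a: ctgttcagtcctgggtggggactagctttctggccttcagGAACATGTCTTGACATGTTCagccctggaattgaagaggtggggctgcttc
Ccng1: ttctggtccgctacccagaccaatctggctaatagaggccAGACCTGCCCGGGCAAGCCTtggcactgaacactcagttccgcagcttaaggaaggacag
Zmat3: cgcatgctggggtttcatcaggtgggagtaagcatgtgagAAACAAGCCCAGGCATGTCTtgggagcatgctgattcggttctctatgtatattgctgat
Bax: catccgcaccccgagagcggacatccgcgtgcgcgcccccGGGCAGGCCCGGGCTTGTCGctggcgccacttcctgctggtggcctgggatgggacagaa

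Within the 2 kb limit, which the rule itself set, the peak centres lay close to and mostly just upstream of the start site. The median distance of the peak centre was 95 bp, and 178 of the 340 centres (52.4%) lay within 100 bp of the TSS, 267 (78.5%) within 250 bp and 317 (93.2%) within 1000 bp. Upstream centres numbered 248 and downstream centres 92, with a median of -54.5 bp and quartiles of -143 and 12.2 bp. By annotation 219 centres (64.4%) were intergenic, 60 (17.6%) lay in a 5′ UTR, 48 (14.1%) in an intron, 11 in a coding exon and 2 in a 3′ UTR. For 55 of the peaks (16.2%) a pair of divergent coding genes, with start sites at most 1000 bp apart, lay within 2 kb of the centre, on either side of it. Of all 26032 coding TSSs, 8.05% belonged to such a pair. The first share counts peaks with a pair nearby and the second counts TSSs in a pair, so they cannot be compared directly. Bbc3, Celsr3 and Srek1 each had 2 promoter peaks, which at Bbc3 lay 115 and 876 bp upstream.

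**Figure D1:**
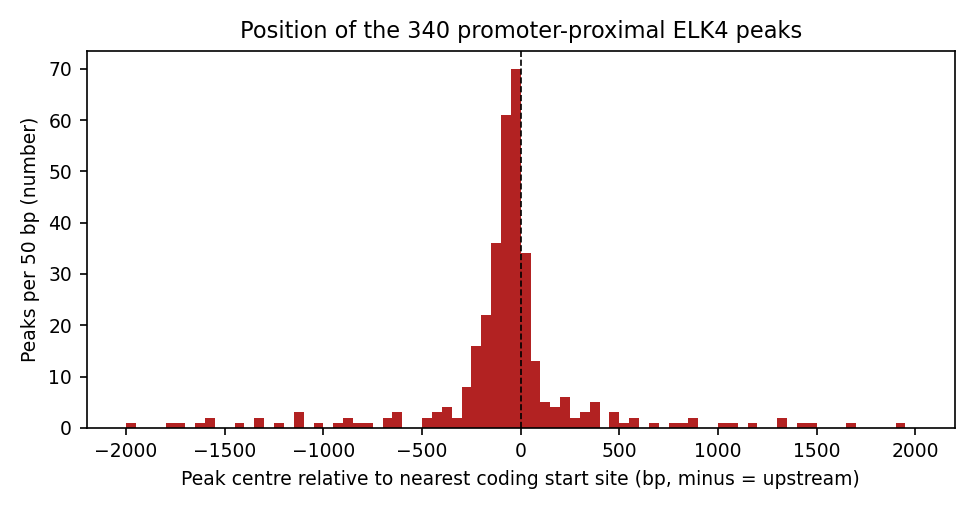
Number of promoter-proximal ELK4 peaks per 50 bp of distance between the peak centre and the nearest coding TSS, with upstream distances negative and the TSS at the dashed line. The 340 peaks pile up around and just upstream of the TSS, with 178 of them within 100 bp.

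The promoters were CpG-rich. Their median GC content was 59.9% and their median ratio of observed to expected CpG was 0.788 (quartiles 0.681 and 0.899), against 0.22 in the distal peaks and 0.629 in 400 bp windows centred on all coding TSSs. With CpG-rich defined as a ratio of at least 0.6 and a GC content of at least 50%, the term covered 273 promoter peaks (80.3%), 21 distal peaks (11.4%) and 13260 windows at coding TSSs (50.9%). Shares at CpG-rich windows are given below beside those at all windows for the motifs and lists named.

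Immediate early genes had the highest share of ELK4 promoters among the 20 gene lists. A list of p53 targets drawn up after the data had been seen, described below, is not among the 20 and had a higher share (36.8%). ELK4 was at the promoter of 9 of 38 serum response and immediate early genes (23.7%), against 1.92% of all coding genes: Fos and Junb, which encode subunits of AP-1, the zinc finger factors Egr1, Egr2 and Egr4, the orphan nuclear receptor gene Nr4a1, the antiproliferative gene Btg2, the survival gene Mcl1, and Ier2. The peak centre lay 287 bp upstream of the TSS at Fos, 402 bp at Egr1, 75 bp at Egr2 and Nr4a1, 80 bp at Egr4, 252 bp at Btg2 and 5 bp at Mcl1, whereas the peaks of Ier2 and Junb lay farther away, at 1225 and 1341 bp upstream. Cytoskeletal genes, the other large class of SRF targets, had 1 of 32 with a peak (3.13%), Cfl1, whose TSS lay 1227 bp from a peak that was nearer to Mus81.

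Regulators of blood and mesoderm had few ELK4 promoters. None of 31 blood transcription factor genes and none of 32 genes of ETS factors and their partners had an ELK4 promoter peak, and of 28 mesoderm regulators 1 had one (3.57%), the forkhead gene Foxf1, with a centre 637 bp upstream. None of 69 replication-dependent histone genes had a peak. At a share of 1.92%, fewer than 1 gene would fall in a list of 32 and between 1 and 2 in the list of 69, so these counts of 0 and 1 do not set the lists apart from other genes.

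Genes of general cell functions made up the rest of the lists, each with a few bound members. Aminoacyl-tRNA synthetases, which charge tRNAs, had 4 of 37 (10.8%, among them Aars2, Nars and Vars), proteasome subunits 3 of 49 (6.12%: Psmb5, Psmd12 and Psmd7) and cytosolic ribosomal proteins 5 of 85 (5.88%: Rpl10, Rpl12, Rpl30, Rps19 and Rps27a). DNA replication and repair had 4 of 106 (3.77%: Cdc45, Rad54l, Rpa2 and Xrcc1), RNA polymerase and general transcription factors 4 of 114 (3.51%), vesicle traffic 9 of 259 (3.47%, among them the ESCRT genes Chmp2b and Chmp6), zinc finger genes 15 of 452 (3.32%) and cell cycle and mitosis 5 of 160 (3.13%, with the centromere genes Cenpl and Cenpn). The shares were 2.72% for splicing factors, 2.68% for the respiratory chain, 2.53% for mitochondrial ribosomal proteins, 2.40% for ubiquitin genes, 1.92% for nuclear pore genes and 1.41% for translation factors, close to that of all coding genes. Of the 403 genes, 324 were in none of the 20 lists, so most ELK4 promoters belonged to no group named here.

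The sequence of the promoters was compared with that of the distal peaks of the same library. The ELK4 consensus CCGGAAGT, searched on both strands of the 400 bp peak, was present in 48 of 340 promoters (14.1%, 10.6 to 18.3%) and in 1 of 184 distal peaks (0.543%; Fisher's exact test, adjusted p = 3.4e-08 over the 15 motifs searched). The shorter ETS core CCGGAA, which the consensus contains, was present in 151 promoters (44.4%) and 18 distal peaks (9.78%, Fisher's exact test, adjusted p = 2.5e-16). Of the 400 bp windows at coding TSSs, 5.45% held the consensus and 22.2% the core, and of the CpG-rich windows 9.50% and 34.3%. Neither element was therefore needed for a call, since 189 of the 340 promoters held no CCGGAA. Within the promoters the elements lay towards the middle: the consensus was in the central 200 bp of 35 promoters and in the outer 200 bp of 14 (exact McNemar test, adjusted p = 0.019), and the core in the central part of 108 and the outer part of 59 (adjusted p = 0.00033).

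The CArG box of SRF was found in 16 promoters (4.71%) and 11 distal peaks (5.98%, Fisher's exact test, adjusted p = 0.674), beside 1.54% of windows at all coding TSSs and 1.00% of CpG-rich ones. Its middle lay within 50 bp of the peak centre for 11 of 19 copies, and it was in the central 200 bp of 13 promoters and the outer 200 bp of 4, which did not pass adjustment over the motifs (exact McNemar test, adjusted p = 0.0857). It passed with 1 mismatch allowed (55 against 22, exact McNemar test, adjusted p = 0.00051) and with the TSSs of all annotated transcripts (15 against 4, adjusted p = 0.0382). The mismatch could lie only in the outer CC or GG, and all bases between them had to be A or T. Between promoter and distal peaks the shares were 21.5 and 20.1% with 1 mismatch allowed, the reverse order, and without the peaks that hold a p53 element the difference was -6.48 percentage points (15 of 324 against 10 of 90, Fisher's exact test, adjusted p = 0.103). A CArG box was held by 4 of the 9 immediate early genes, Egr1, Egr2, Fos and Junb. Others with one were Arid3b, Clhc1, Irf3, Kansl1, Mideas, Mpdu1, Mus81, Ncoa7, Osbpl11, Pdlim5 and Shkbp1, and Mus81 and Egr1 held more than 1 copy.

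The arrangement of CArG box and ETS core differed among these promoters. Egr1 held 3 CArG boxes and 3 ETS cores, with gaps of 3, 4 and 20 bp from each box to the nearest core, and Egr2 held a box 8 bp from the peak centre with a core 14 bp away. At Arid3b the gap was 44 bp, and at Shkbp1 and Osbpl11 it was 172 and 218 bp. At Fos the box lay 17 bp from the peak centre, and at Irf3 4 bp and at Pdlim5 6 bp, with no CCGGAA in any of these 3 peaks. No match means only that these letters were not in the window. The shorter GGAA was not searched for, and the printed bases of Fos and Irf3 hold it on either strand, at Irf3 just before the box.

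A motif of YY1, a zinc finger factor of housekeeping promoters, had, among the 15 motifs, the highest share in ELK4 promoters relative to windows at all coding TSSs. Relative to CpG-rich windows the CArG box ranked above it (4.71% of ELK4 promoters and 1.00% of these windows). AAGATGGCG was present in 62 of the 340 promoters (18.2%, 14.3 to 22.8%), in 3 distal peaks (1.63%; Fisher's exact test, adjusted p = 8.6e-09), in 2.52% of windows at all coding TSSs and in 4.55% of CpG-rich windows. Among promoter peaks of the other libraries it was in 3.70% of the 595 of HP RUNX1, 1.06% of the 853 of HP GFI1B and 1.54% of the 324 of MES C/EBPb. The motif lay in the central 200 bp of 44 promoters and the outer part of 21 (exact McNemar test, adjusted p = 0.019), and 41 of its 72 copies (56.9%) lay within 50 bp of the peak centre. Read along the gene, 55 of the 72 copies (76.4%) had the sense orientation, close to the 76.8% at all coding TSS windows, and 31 copies (43.1%) lay downstream of the TSS, beside 74.7% in those windows. The downstream shares cannot be compared directly, since the windows are centred on the TSS and the peaks a median of -54.5 bp from it. Promoters with the YY1 motif held an ETS core in 25 of 62 cases (40.3%) and those without it in 126 of 278 (45.3%). With AAGATGGC in place of AAGATGGCG, a form chosen after the data were seen, the count was 97 promoters (28.5%) and 12 distal peaks (6.52%).

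Several other motifs also differed between promoters and distal peaks. The promoters held more often the SP/KLF site GGGGCGGGG (16.8% against 4.89%, adjusted p = 0.00019), the E-box CACGTG (15.6% against 4.89%, adjusted p = 0.00057) and the NRF1 site GCATGCGC (7.06% against 2.17%, adjusted p = 0.0438), and less often the RUNX site TGTGGT (14.7% against 26.1%, adjusted p = 0.00462) and the GATA site AGATAA (7.94% against 19.0%, adjusted p = 0.00082), all by Fisher's exact test. At coding TSS windows the shares were 17.3% for SP/KLF, 8.98% for the E-box, 3.67% for NRF1, 18.3% for RUNX and 10.7% for GATA. At CpG-rich windows they were 28.8% for SP/KLF, 12.2% for the E-box, 6.05% for NRF1 and 3.93% for GATA, and the RUNX site was in 1595 of the 13260, so that the promoter peaks lay below these windows for SP/KLF and above them for the other 4 motifs, whereas for RUNX and GATA they lay below all coding TSS windows. With the peaks that hold a p53 element left out, which left 90 distal peaks, all 5 differences kept their direction and none passed Fisher's exact test. The difference was 7.78 percentage points for SP/KLF (11.9 with all peaks, Fisher's exact test, adjusted p = 0.145 without), 9.07 for the E-box (10.7, adjusted p = 0.0755), 4.07 for NRF1 (4.88, adjusted p = 0.291), -6.30 for RUNX (-11.4, adjusted p = 0.291) and -8.46 for GATA (-11.1, adjusted p = 0.0753). The RUNX difference also did not pass with promoters limited to 500 bp from the TSS (Fisher's exact test, adjusted p = 0.0901). With the peaks that hold a p53 element again left out, the differences of the ETS core (Fisher's exact test, adjusted p = 8.5e-07), the ELK4 consensus and YY1 (0.00034 for both) passed. The E-box was also more frequent in the central than in the outer 200 bp (36 against 17 promoters, exact McNemar test, adjusted p = 0.0352). Base composition differed between promoters and distal peaks, as given above, and its part in these differences was not tested.

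**Figure D2:**
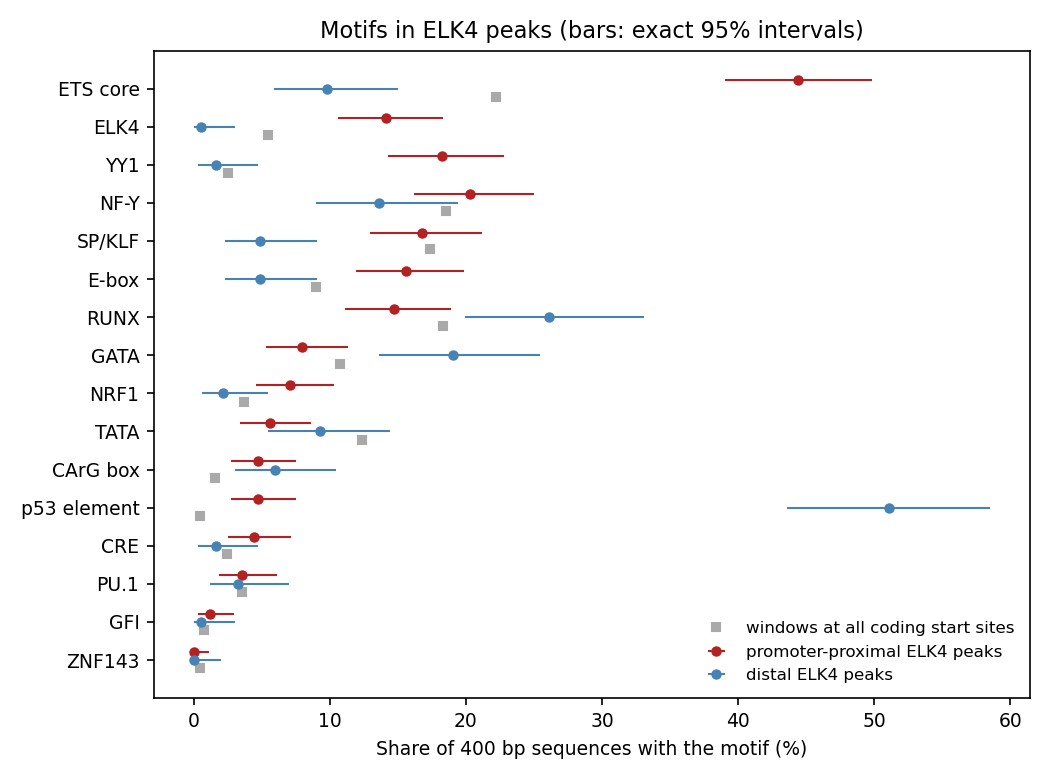
Share of 400 bp sequences that hold each motif in promoter-proximal ELK4 peaks (red), distal ELK4 peaks (blue) and windows centred on all coding TSSs (grey squares), with exact 95% intervals for the peaks. The shares of the ETS core, ELK4 and YY1 motifs in promoter peaks, at 44.4, 14.1 and 18.2%, lie above those in distal peaks and TSS windows, and the p53 element is in 51.1% of distal peaks and 4.71% of promoter peaks.

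A response element of p53, the DNA damage-activated tumour suppressor, was looked for after recurring words in the peaks had been seen, so its counts are given without a test. It was taken as both decamers of the p53 consensus without a spacer, with the 4 core bases exact and at most 2 other mismatches, and was present in 16 of the 340 promoters (4.71%, 2.71 to 7.53%), in 94 of 184 distal peaks (51.1%, 43.6 to 58.5%) and in 0.430% of windows at coding TSSs (0.302% of CpG-rich ones). In the promoters 2 of these elements were exact, at Zmat3 and Dyrk3, 8 of the 16 had 1 mismatch at best and 6 had 2. The element lay within 50 bp of the peak centre in 14 of the 16 promoters, with a median distance of 8.5 bp, and it was 4 bp from the centre at Ccng1, 5 bp at Bax and Zmat3, and 9 bp at Cdkn1a. The other promoters with an element were those of Aebp2, Ckap2, Eda2r, Gtse1, Junb, Mmp2, Nudcd2, Olfr543, Psrc1, Svop and Traf4.

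Among the genes with ELK4 promoter peaks, Cdkn1a encodes the cell cycle inhibitor p21, Bax and Bbc3 (PUMA) drive apoptosis, and Ccng1, Zmat3 and Eda2r are among the best known p53 targets. A list of 38 established p53 targets, also drawn up after the data had been seen, had 14 genes with an ELK4 promoter peak (36.8%, against 1.92% of all coding genes), which were Aen, Bax, Bbc3, Btg2, Ccng1, Cdkn1a, Ckap2, Eda2r, Gtse1, Phlda3, Psrc1, Rap2b, Trp53inp1 and Zmat3. The 15 peaks at these promoters included 8 with an element.

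By these 4 elements, with AAGATGGC for YY1, the promoters fell into classes. An ETS core alone was held by 101 (29.7%), a YY1 motif alone by 55 (16.2%) and both by 41 (12.1%). A p53 element alone was held by 13 and a CArG box alone by 8, a CArG box with an ETS core by 6, and 112 promoters (32.9%) held none of the 4 elements.

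**Figure D3:**
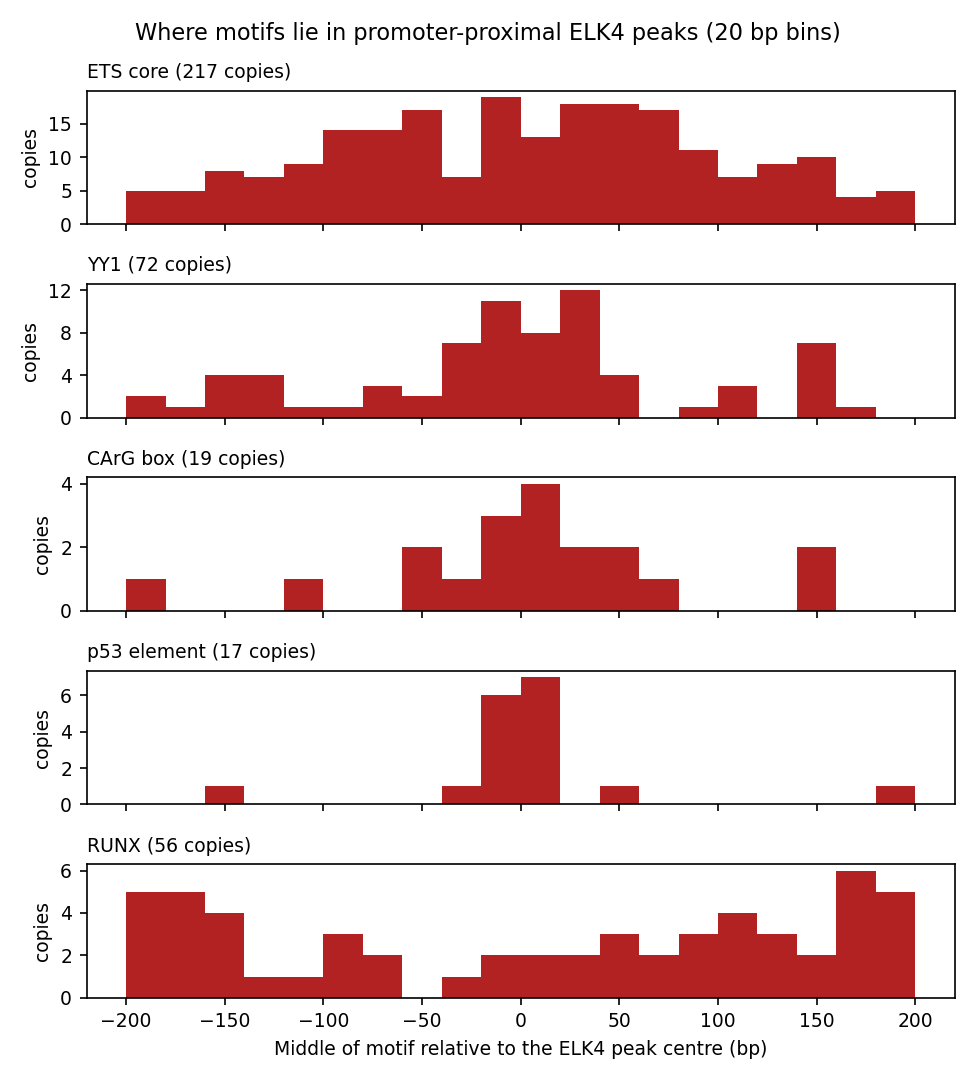
Copies of 5 motifs in the 340 promoter-proximal ELK4 peaks by the distance of the motif's middle from the peak centre, in bins of 20 bp. The p53 elements (17 copies) crowd at the centre and YY1 copies concentrate there (41 of 72 within 50 bp), ETS cores (78 of 217 within 50 bp) form a broad hump, and 9 of 56 RUNX sites lie within 50 bp.

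The next question was which of these promoters appeared in the lists of blood factors at later stages. A peak of RUNX1, GFI1B or PU.1 in HP or MAC overlapped 216 of the 340 promoters by at least 1 bp (63.5%), mostly through PU.1 in macrophages, beside 33.0% of windows at all coding TSSs and 49.0% of CpG-rich ones. In HP 73 promoters (21.5%) had at least 1 of the 3 factors and 267 had none, beside 8.16% of all coding TSS windows and 12.5% of CpG-rich ones with at least 1. No promoter carried all 3 in HP. The share of coding TSS windows with more than 1 of these 3 factors in HP was not computed. Counts of promoters with such combinations, here and below, therefore do not set these promoters apart from other start sites. The lists differ greatly in length, from 72 peaks for MAC RUNX1 to 82866 for MAC PU.1, and the peak caller's threshold was set for each list, so shares are read against the background for the same list and not between lists.

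RUNX1, the factor required for blood cells to emerge from endothelium, was present in HP at 27 ELK4 promoters (7.94%, 5.30 to 11.3%), against 4 of 184 distal ELK4 peaks (2.17%; Fisher's exact test, adjusted p = 0.0206 over the 13 lists). The call was lost where an overlap of at least 200 bp was required (23 promoters against 4 distal peaks, Fisher's exact test, adjusted p = 0.0746) and without the peaks that hold a p53 element (27 of 324 promoters against 4 of 90 distal peaks, 3.89 percentage points beside 5.77 with all peaks, adjusted p = 0.38). The background was 2.27% of windows at coding TSSs and 4.19% of CpG-rich windows. The 27 peaks were 2.76% of the 977 HP RUNX1 peaks. Peak centres of the 2 factors lay 7 to 288 bp apart, with a median of 78 bp. The genes were Fos and Ier2 of the immediate early group, the mesodermal gene Foxf1, the interferon regulator Irf3, the proteasome gene Psmd7, the ribosomal protein gene Rpl30, the chaperonin gene Hspe1, the RNA methyltransferase gene Nsun2, the mRNA export gene Rae1, the p53 target Trp53inp1, and Alg12, Arhgap1, Bola2, C9orf72, Cfap20, Clptm1, Cstf2t, Dnajc10, Fitm2, Kptn, Micos13, Plod3, Rabggtb, Snapc2, Tm9sf4, Zc3h3 and Zfp740. In macrophages the RUNX1 list overlapped 1 ELK4 promoter, Zfp740 (0.294%), and 2 distal peaks (1.09%, Fisher's exact test, adjusted p = 0.456), with 0.0653% of coding TSS windows and 0.113% of CpG-rich ones as background.

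GFI1B, a repressor that acts with LSD1 in the emergence of blood cells from endothelium, was present in HP at 15 ELK4 promoters (4.41%, 2.49 to 7.17%) and 9 distal peaks (4.89%, 2.26 to 9.08%), a difference that did not pass the test (Fisher's exact test, adjusted p = 0.828) and whose sign turned with a 1 kb window, with all annotated transcripts and with centres within 1 kb. The background was 2.16% of coding TSS windows, and 3.42% of CpG-rich ones. The 15 peaks made up 0.743% of the 2018 peaks of the list. The genes were Atf6, a sensor of stress in the endoplasmic reticulum, the cytokine receptor kinase gene Tyk2, the calcium channel gene Orai3, Npas4, the splicing helicase gene Dhx38, the centromere gene Cenpl, and Cacng2, Ccdc157, Cfap20, Cstf2t, Enkur, Kptn, Sec23ip, Wdr3 and Zc3h3. Cfap20, Cstf2t, Kptn and Zc3h3 carried both RUNX1 and GFI1B in HP.

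**Figure D4:**
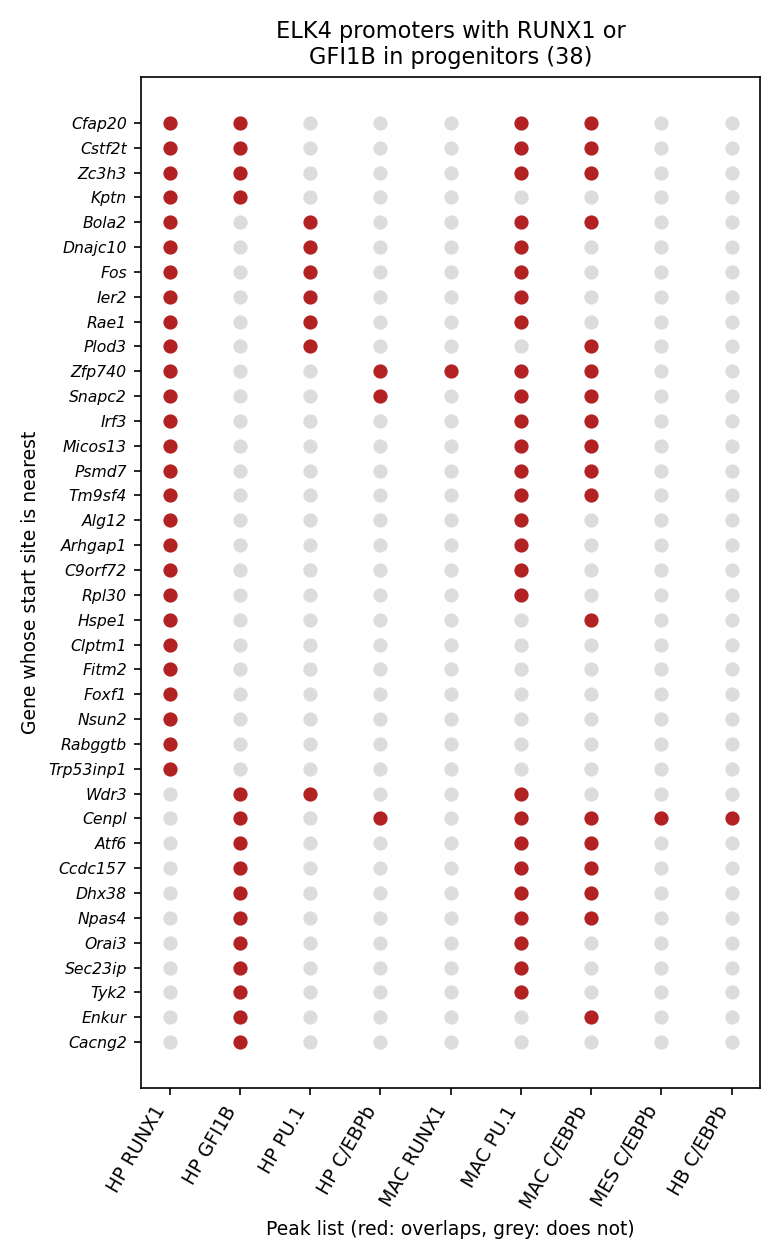
The 38 ELK4 promoters that overlapped an HP RUNX1 or an HP GFI1B peak (rows, named by the nearest gene) and the 9 lists that overlapped at least 1 of them (columns), with red for an overlap and grey for none. RUNX1 and GFI1B share 4 rows at the top, RUNX1 and PU.1 of HP share 6, and most rows also carry PU.1 in MAC.

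PU.1, the myeloid member of the ETS family, whose site shares the GGAA core, was present in HP at 42 ELK4 promoters (12.4%, 9.05 to 16.3%) and 6 distal peaks (3.26%, Fisher's exact test, adjusted p = 0.00167), with 4.43% of coding TSS windows and 6.04% of CpG-rich windows as background. Without the peaks that hold a p53 element the overlaps were 40 of 324 and 4 of 90, a difference of 7.90 percentage points beside 9.09 with all peaks, which did not pass Fisher's exact test (adjusted p = 0.122). The 42 peaks were 0.384% of the HP PU.1 list. They included the immediate early genes Fos, Ier2, Junb and Mcl1, and RUNX1 was on 6 of the same promoters: Bola2, Dnajc10, Fos, Ier2, Plod3 and Rae1. Wdr3 carried PU.1 and GFI1B. In macrophages PU.1 was at 205 ELK4 promoters (60.3%, 54.9 to 65.5%) and 32 distal peaks (17.4%, Fisher's exact test, adjusted p = 5.2e-21), beside 31.3% of coding TSS windows and 46.3% of CpG-rich ones. Of the 273 CpG-rich ELK4 promoters, 172 (63.0%) overlapped MAC PU.1.

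Other libraries also shared their promoter peaks with MAC PU.1, at 66.9% for the 595 HP RUNX1 promoter peaks, 48.8% for the 853 of HP GFI1B, 48.8% for the 324 of MES C/EBPb and 49.8% for the 207 of HB C/EBPb. Of the 42 ELK4 promoters with PU.1 in HP, 41 also had it in MAC, all but Plod3, and of the 298 without it 164 (55.0%) did. MAC PU.1 was at 18 of the 27 promoters with HP RUNX1 and at 12 of the 15 with HP GFI1B, beside 60.3% of all 340. At the 9 promoters of the immediate early list, HP RUNX1 was present at 2, HP PU.1 at 4, MAC PU.1 at 6 and HP GFI1B at none, beside 7.94, 12.4, 60.3 and 4.41% of all 340 promoters, and with 9 promoters a count of 0 at a share of 4.41% does not set them apart.

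The remaining lists met few ELK4 promoters, apart from C/EBPb in macrophages. MAC C/EBPb overlapped 122 (35.9%) and 21 distal peaks (11.4%, Fisher's exact test, adjusted p = 2.9e-09), with 18.7% of coding TSS windows and 27.5% of CpG-rich ones as background, and 91 promoters (26.8%) carried both MAC C/EBPb and MAC PU.1, beside 11.7% of coding TSS windows and 17.7% of CpG-rich ones. HP C/EBPb overlapped 14 (4.12%, background 1.86% of all and 2.89% of CpG-rich windows) and MES C/EBPb, from the same stage as ELK4, 8 (2.35%, background 0.953% and 1.49%), in both cases without a difference from distal peaks that passed Fisher's exact test (adjusted p = 0.456 and 0.598). HB C/EBPb overlapped 5 (1.47%, background 0.565% and 0.913%) and 1 distal peak (0.543%, Fisher's exact test, adjusted p = 0.726). The 8 promoters shared by ELK4 and C/EBPb in MES included those of Cenpl, Cyb5d2, Dnajb6, Mideas, Mpc2, Nars and Nup35. None of the 340 promoters overlapped a peak of HB GATA2, HP GATA1, HP GATA2 or HE C/EBPb, for which the exact 95% interval reaches 1.08% for each list, and the distal peaks gave 1 or 2 overlaps with each. These lists also met few start sites in general, with 0.0154, 0.161, 0.357 and 0.0461% of coding TSS windows in that order and 0.00754, 0.219, 0.543 and 0.0905% of CpG-rich ones, all within the intervals, so the counts of 0 do not set the promoters apart.

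**Figure D5:**
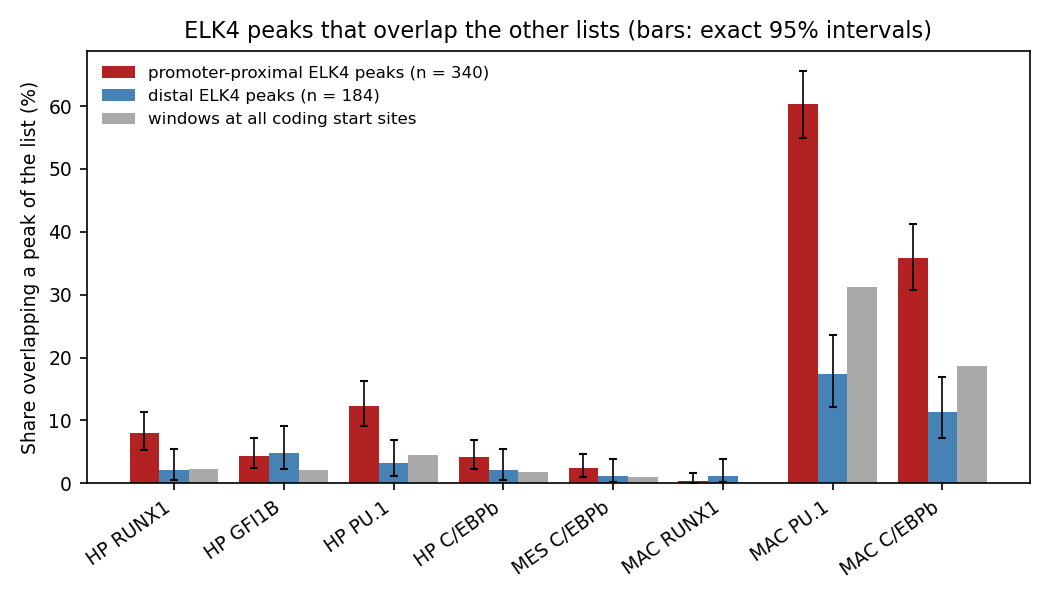
Share of promoter-proximal ELK4 peaks (red), distal ELK4 peaks (blue) and 400 bp windows at all coding TSSs (grey) that overlapped a peak of each list by at least 1 bp, with exact 95% intervals for the ELK4 peaks. The promoter share was above the distal share for HP RUNX1, HP PU.1, MAC PU.1 and MAC C/EBPb by Fisher's exact test over all ELK4 peaks, and the intervals of the other 4 lists overlap.

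The number of lists per promoter was small. No other list overlapped 96 promoters (28.2%), against 72.8% of the 184 distal peaks, while 116 promoters were in 1 other list and 81 in 2 others. Absence from these lists does not mean that ELK4 was the only factor bound, since other factors of the study are not among the 14 lists. The share of coding TSS windows in no list was not computed, so the promoter share has no such background. In all, 15 promoters were bound in 5 or more of the 14 lists: Cenpl in 7, Dnajb6, Mpc2 and Zfp740 in 6, and among others Bola2, Cfap20, Cstf2t, Cyb5d2, Junb, Mideas, Nars, Nup35, Snapc2 and Zc3h3 in 5. Apart from Bola2, Cfap20, Cstf2t and Zc3h3, the promoters named held a peak of C/EBPb in HP. Fos and Ier2, with RUNX1 and PU.1 in HP and PU.1 in MAC, were in 4 lists each.

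The promoters with PU.1 differed in sequence from those without it. The ELK4 consensus was held by 39 of the 205 promoters with MAC PU.1 (19.0%, 13.9 to 25.1%) and 9 of the 135 without it (6.67%, 3.09 to 12.3%; Fisher's exact test, adjusted p = 0.00521 over 8 tests). The PU.1 site GAGGAAGT was in 12 of the 205 and none of the 135 (Fisher's exact test, adjusted p = 0.0114), which did not pass with overlap taken as centres within 1 kb (12 of 256 against 0 of 84, adjusted p = 0.086), and in 8 of the 42 promoters with HP PU.1 against 4 of 298 without (adjusted p = 7.8e-05). The GFI site, AATCACAGC or AATCACTGC, was in 2 of the 15 promoters with HP GFI1B, Sec23ip and Wdr3, and 2 of 325 without (exact test, adjusted p = 0.0208). The RUNX site was in 6 of 27 promoters with HP RUNX1 and 44 of 313 without (22.2% against 14.1%, exact test, adjusted p = 0.413), which did not pass the test. The ELK4 consensus itself was in 5 of 27 promoters with HP RUNX1 and 43 of 313 without (18.5% against 13.7%, exact test, adjusted p = 0.642), and for HP GFI1B (3 of 15 against 45 of 325) and HP PU.1 (5 of 42 against 43 of 298) the adjusted p-values were 0.605 and 0.815.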

How the data were processed

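Binding of 7 transcription factors was mapped by ChIP-seq at 5 stages, in 14 libraries with 1 list each. In the methods of the study, the authors trimmed reads with CutAdapt, aligned them to mm10 with Bowtie, removed duplicates with Picard, called peaks with MACS against the input of the same stage at a threshold judged by eye for each list, and refined them with polyPeak. Some libraries merged technical sequencing runs. Versions are not given in the sources used here. The deposited values are peak starts and ends in base pairs, each peak 400 bp wide, without scores, so peak heights are unknown. The study also tabulates aligned reads per library, which were not used here.

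Start sites were the 26032 gene and TSS pairs of RefSeq NM transcripts (GRCm38.p6). Overlaps, motifs on both strands and tests were computed in Python 3.11.15 with SciPy 1.17.1 and NumPy 2.4.6, and plots drawn with Matplotlib 3.10.9. Promoter and distal ELK4 peaks were compared by two-sided Fisher's exact tests, and the inner and outer 200 bp of a peak by the exact McNemar test, with Benjamini-Hochberg adjustment over 13 lists, 15 motifs or 8 subset tests and a threshold of 0.05. The 95% intervals of shares are exact (Clopper-Pearson) and take in no error other than that of counting. The functions were tested on simulated data. Genes were named where they were in a gene list, carried all 3 HP factors or MAC RUNX1, held a CArG box, lay in 5 or more lists, had 2 or more peaks or lay at the 2 kb limit (beyond 15 in a part, the closest to the TSS), and all promoters with HP RUNX1 or HP GFI1B were added. Some genes that this rule names are not reported here. The promoters, lists and motifs were chosen with earlier results of these data known. Alternatives were TSS windows of 1 kb and 500 bp, all annotated transcripts, an overlap of 200 bp, centres within 1 kb, other consensus forms and the removal of regions bound in 7 or more lists or, added after the data were seen, of peaks with a p53 element.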

Additional observations from a re-analysis of the deposited data

How the results depend on the processing

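Of 183 alternative values, 166 kept their direction and their side of the threshold of 0.05, and the number of promoters stayed within 1.5 times of 340 throughout. The difference in HP RUNX1 overlap between promoter and distal ELK4 peaks fell to 4.59 percentage points with an overlap of at least 200 bp (Fisher's exact test, adjusted p = 0.0746). The HP GFI1B difference of -0.48 points turned to 0.384 with a 1 kb window, 0.969 with all annotated transcripts and 0.448 with centres within 1 kb, far from the threshold each time. With 1 mismatch allowed in the outer CC or GG, the CArG box difference between promoter and distal peaks turned from -1.27 to 1.36 points, and its excess in the inner 200 bp rose to 9.71 points and passed the threshold (exact McNemar test, adjusted p = 0.00051), as it did with all annotated transcripts at 2.97 points (adjusted p = 0.0382). With the ETS core in place of the consensus, the difference between promoters with and without HP PU.1 turned from -2.52 to 3.66 points. The RUNX site difference lost its call with a 500 bp window (Fisher's exact test, adjusted p = 0.0901), and that of the PU.1 site by MAC PU.1 with centres within 1 kb (adjusted p = 0.086). Without the ELK4 peaks that hold a p53 element, an alternative chosen after the data were seen that left 324 promoter and 90 distal peaks, the differences in HP RUNX1 overlap (3.89 points) and HP PU.1 overlap (7.90 points) lost their calls (Fisher's exact test, adjusted p = 0.38 and 0.122), as did those of the RUNX, GATA, SP/KLF, E-box and NRF1 sites, and those of MAC PU.1 (35.6 points), MAC C/EBPb (20.2 points), the ETS core, the ELK4 consensus and YY1 passed. Fewer distal peaks were left to compare, and other causes were not tested. No paired analysis was possible because every list was 1 library. Without peak scores, weak binding below a list's threshold cannot be told apart from none.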

Other observations

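The distal ELK4 peaks, which are outside the promoters described above, carried the p53 element in 94 of 184 cases, of which 28 were exact, 38 had 1 mismatch and 28 had 2. The element lay within 50 bp of the peak centre in 90 of the 94, with a median distance of 7 bp. The 28 distal peaks with an exact element lay between 7438 and 476056 bp from the nearest coding TSS. The element was in 0.504% of HP RUNX1 promoter peaks, 0.586% of HP GFI1B promoter peaks and 0.617% of MES C/EBPb promoter peaks. A peak also lay 44 bp upstream of Wrap53, in the divergent promoter that this gene shares with Trp53, which encodes p53, and it overlapped no other list.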
